A study of Mus musculus with 6 samples.

Results

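The genes described here build and steer the vesicles that carry membrane and cargo between the compartments of a cell: the Rab GTPases and their regulators, the endosomal sorting complexes, the SNARE proteins that fuse membranes, and the coats, adaptors and tethers of the secretory pathway. They were chosen by gene name, as rows of the authors' deposited table that name 1 gene and reach a level of at least 1 in the higher condition. This gave 239 rows for 237 genes out of 11722 rows that met the same level criterion. Rab34 and Stx3 each stand in 2 rows. The antisense transcripts Rab10os and Rab26os share the name pattern but encode no vesicle protein and were left out. Just inside the level limit lay Tbc1d30, at 1.03 in the second and 0.911 in the first condition of the authors' deposited table. Just outside it lay Vamp1, at 0.888 in the second and 0.961 in the first condition of the authors' deposited table, and the other 5 excluded genes were Rab17, Rab40b, Rab39, Ap1s3 and Vamp5.

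Poly(A) RNA was sequenced from commercially obtained neural stem cells of CD-1 mouse embryos at E14.5, which had been transduced with a lentiviral short hairpin RNA (shRNA). Per the labels there were 2 libraries with the Sox4 hairpin TRCN0000012078, 2 with the Sox4 hairpin TRCN0000012080 and 2 with the scrambled hairpin SHC002, numbered by passage, whereas the series' design text speaks of a single Sox4 hairpin. All cells grew attached to laminin, with EGF and bFGF in the medium, and were expanded under puromycin at 0.5 µg/mL, so all carried a lentivirus. Sox4 is a transcription factor of the SoxC group. The deposited values are 1 level per gene in each of 2 conditions, which the header calls only first and second. It does not say which hairpin belongs to which condition or which libraries were pooled, and no condition was assigned here from the values. Every fold is therefore that of the second over the first condition, and the level of Sox4 in each, given further on, was not used to assign a hairpin. The header names no unit for the levels; Cuffdiff writes FPKM there, which counts fragments per length of transcript and per number of mapped fragments, and levels are read as that here. No value per library is given, so no standard deviation or n stands beside any level, and the depth is unknown. A gene "rose" or "fell" only where the authors flagged it, at a Cuffdiff q of up to 0.05.

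A Rab GTPase cycles between an active form bound to GTP, which sits on a membrane and recruits effectors there, and an inactive form bound to GDP. Different Rabs mark different compartments, TBC domain proteins switch Rabs off by speeding GTP hydrolysis, and guanine nucleotide exchange factors switch them on. Cargo that enters by endocytosis reaches early endosomes, from which retromer and sorting nexins retrieve receptors, while the ESCRT complexes sort ubiquitinated proteins into internal vesicles bound for lysosomes. In neural stem cells this traffic helps set how long growth factor and Notch receptors stay at the surface.

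Few of the vesicle traffic genes chosen by name were called. Of the 239 rows, 3 rose, 2 fell and 234 were not called, which is 2.09% called, against 5.12% of all measured genes. The rises were 1.26% of the members against 3.26% of all measured genes, and the falls 0.837% against 1.86%. For a family or complex of few rows, 0 called genes lies close to the 5.12% over all measured genes. The genes that rose were Vps13c and Vps13d, which encode bridge-like proteins that move lipids between membranes, and Tbc1d1, a Rab GTPase-activating protein. The genes that fell were Chmp2b, a subunit of the membrane-cutting ESCRT-III complex, and Snx32, a sorting nexin. The log2 folds of the members ran from -0.89 to 0.92, and their median was -0.07, against 0.0018 for all measured genes. A negative log2 fold was found for 146 members, 61.1%, against 49.8% of all measured genes, and 2 of these members were called. Among members that were not called, 7 stood higher and 16 lower in the second condition at an unadjusted Cuffdiff p under 0.05. With the called genes included, that is 4.18% higher and 7.53% lower among the members, against 9.99% higher and 7.65% lower among all measured genes.

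**Figure D1:**
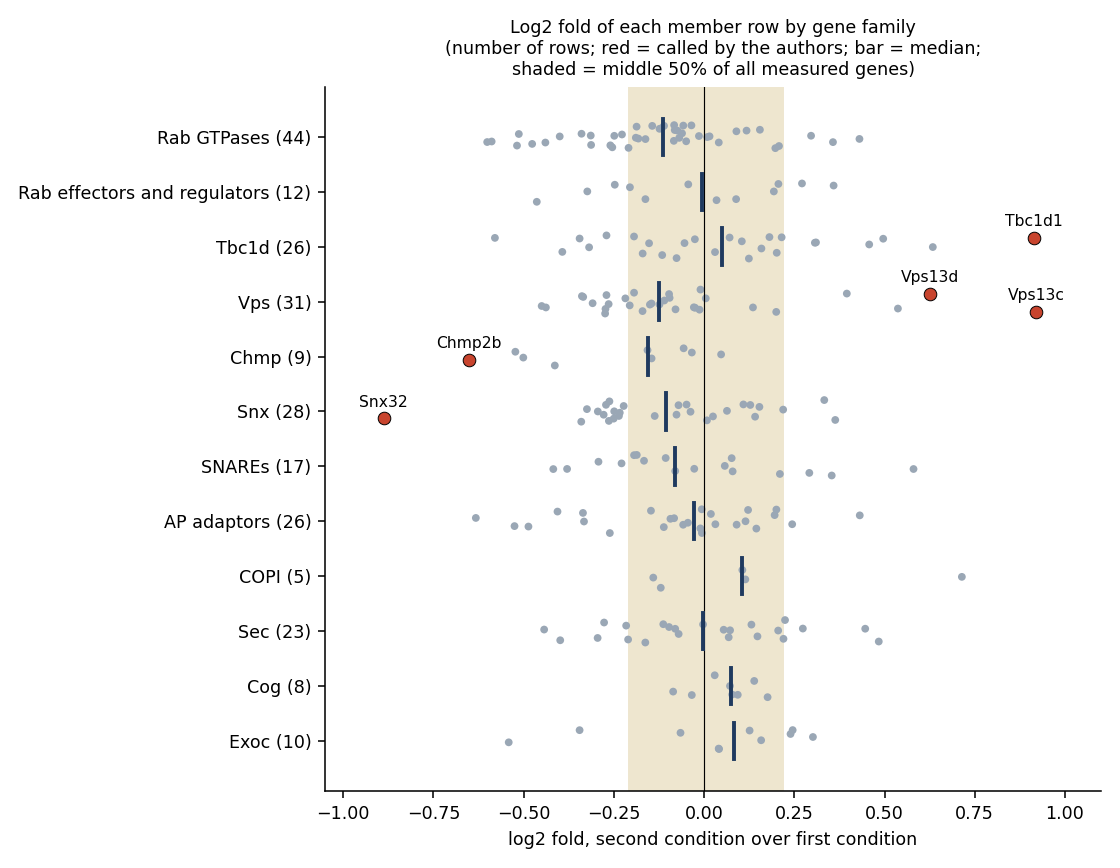
Log2 fold of the second over the first condition (x axis) for each member row, grouped by gene family (y axis, number of rows in brackets); red points were called by the authors, dark bars are family medians, and the shaded band holds the middle 50% of all measured genes. The 5 called genes lie in 4 families, and the medians of 8 of the 12 families lie left of 0, those of the Rab GTPases, Vps, Chmp and Snx genes the farthest.

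The promoter windows of 3 of the 5 called members are printed here because they are the places a transcription factor would be looked for first; those of Vps13c and Snx32 are not shown. The window of Rab5a was added after its values were seen. The windows surround RefSeq starts on GRCm38.p6, from 250 bases before to 50 bases after, and are read 5′ to 3′ on the gene's strand. Where a gene has several RefSeq starts the most upstream of those is shown. The Tbc1d1 window lies inside the annotated span of that gene, given further on, so the region around its annotated start was not searched. Capitals mark any match, on either strand, to the Sox-type motifs ACAAAG and ACAATG or to the E-box TCACGTG, which the lysosomal regulator TFEB is known to bind. Tbc1d1 lies at chr5:64160010-64160309 on the plus strand, Vps13d at chr4:145194956-145195255 on the minus strand, Chmp2b at chr16:65562713-65563012 on the minus strand and Rab5a at chr17:53478984-53479283 on the plus strand.
Tbc1d1: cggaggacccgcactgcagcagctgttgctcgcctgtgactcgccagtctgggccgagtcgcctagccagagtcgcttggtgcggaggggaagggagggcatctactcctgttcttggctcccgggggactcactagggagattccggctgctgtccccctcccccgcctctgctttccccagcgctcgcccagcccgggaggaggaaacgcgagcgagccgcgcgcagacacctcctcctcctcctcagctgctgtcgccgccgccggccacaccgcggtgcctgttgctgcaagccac
Vps13d: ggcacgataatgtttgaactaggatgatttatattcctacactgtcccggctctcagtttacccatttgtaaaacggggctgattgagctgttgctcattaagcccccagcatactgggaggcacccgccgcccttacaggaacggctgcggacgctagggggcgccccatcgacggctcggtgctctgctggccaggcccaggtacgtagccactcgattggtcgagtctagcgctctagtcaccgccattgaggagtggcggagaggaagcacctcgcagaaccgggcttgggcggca
Chmp2b: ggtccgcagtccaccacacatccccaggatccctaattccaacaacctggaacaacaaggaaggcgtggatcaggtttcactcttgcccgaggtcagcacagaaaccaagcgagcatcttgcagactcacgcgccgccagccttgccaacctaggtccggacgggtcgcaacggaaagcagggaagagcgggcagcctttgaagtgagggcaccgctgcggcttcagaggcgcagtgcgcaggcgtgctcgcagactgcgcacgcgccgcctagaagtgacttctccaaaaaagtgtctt
Rab5a: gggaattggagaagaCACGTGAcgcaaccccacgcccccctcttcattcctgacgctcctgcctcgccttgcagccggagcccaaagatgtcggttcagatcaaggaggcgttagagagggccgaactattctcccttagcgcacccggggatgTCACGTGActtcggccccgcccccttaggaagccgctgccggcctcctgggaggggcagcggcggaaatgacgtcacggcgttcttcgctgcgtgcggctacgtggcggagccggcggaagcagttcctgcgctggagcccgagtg
The windows of Tbc1d1, Vps13d and Chmp2b held none of the 3 motifs, and the window of Rab5a held 2 separate E-box sites, 1 of them a palindrome that matches on both strands. RefSeq windows were at hand for 192 member genes, in 240 windows. ACAAAG was found in 9.58% of these windows, against 13.7% of the 11666 windows of measured genes, and ACAATG in 9.58% against 7.29%. TCACGTG was found in 10.8% of the members' windows, against 6.02% of those of measured genes. A match is a string of letters, and binding was not measured.

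The Vps13 proteins span contact sites between organelles and carry lipids across them; mutations in the human genes cause neurological disease. Vps13c (chromosome 9, 67840396 to 67995638, plus strand) stood at 4.47 in the second and 2.36 in the first condition of the authors' deposited table (log2 fold 0.92, Cuffdiff q 0.00304). Vps13d (chromosome 4, 144972622 to 145195005, minus strand) had a level of 5.84 in the second and 3.78 in the first condition of the authors' deposited table (log2 fold 0.63, Cuffdiff q 0.0317). Both are expressed at low levels and both were called as higher in the second condition. The other family members were not called. Vps13a stood at 2.42 in the second and 1.67 in the first condition of the authors' deposited table, with a p of 0.0149 and a q of 0.160. Vps13b stood at 3.53 in the second and 2.69 in the first condition of the authors' deposited table, with a p of 0.0498 and a q of 0.307. All 4 thus had a positive log2 fold. Their transcripts are among the longest of the members, from 10838 to 15849 nt, and the share of called rises depends on length, as given further on. All 4 lie in the longest of 10 length groups, where 24.1% of all measured genes had a negative log2 fold. Exons of Vps13b overlap Cox6c, and those of Vps13a overlap Gm9806, on the other strand, and without strand in the counting the reads of such a pair cannot be separated.

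Tbc1d proteins carry the TBC domain that turns Rabs off. Tbc1d1 acts on Rabs of glucose transporter vesicles in muscle. It lies on chromosome 5 from 64156305 to 64351486, on the plus strand, and stood at 32.7 in the second and 17.3 in the first condition of the authors' deposited table (log2 fold 0.91, Cuffdiff q 0.00304). That q is the floor of the authors' deposited table, shared by 230 rows, Vps13c among them. No annotated exon of another gene overlaps its exons. Of the 26 Tbc1d genes it alone was called, with 14 positive and 12 negative log2 folds and a median of 0.05. Tbc1d4, its closest relative and a regulator of the same vesicles, was at 4.05 in the second and 4.27 in the first condition of the authors' deposited table (log2 fold -0.08). The pair therefore differed in level as well as in fold, and the difference between their folds was not tested. Tbc1d2b, whose relative Tbc1d2 acts on the late endosomal Rab7, stood at 5.87 in the second and 3.78 in the first condition of the authors' deposited table, with a q of 0.0726. Tbc1d10a, an activating protein for Rabs including Rab35 and Rab27a, stood at 18.3 in the second and 27.4 in the first condition of the authors' deposited table, with a q of 0.0827. Neither was called, and they lay on opposite sides. The most abundant Tbc1d gene was Tbc1d20, which acts on Rab1, at 42.1 in the second and 47.4 in the first condition of the authors' deposited table.

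The ESCRT machinery works in sequence: ESCRT-I and ESCRT-II gather ubiquitinated cargo, ESCRT-III filaments pinch the membrane off, and the Vps4 ATPases take the filaments apart. Of the 18 measured genes named Chmp or Vps that belong to it, 1 fell, 0 rose and 16 had a negative log2 fold, with a median of -0.18. Of all measured genes 1.86% fell and 3.26% rose. Negative log2 folds made up 88.9% of the 18, against 49.8% of all measured genes. The median transcript length of the 18 was 2159 nt, and 61.5% of all genes in the shorter 5 of 10 length groups were negative. Chmp2b (chromosome 16, 65539128 to 65562726, minus strand), whose human counterpart is mutated in a form of frontotemporal dementia, fell to 27.4 in the second condition, against 43.0 in the first condition of the authors' deposited table (log2 fold -0.65, Cuffdiff q 0.0248). Chmp2a, the closest relative of Chmp2b, stood at 53.7 in the second and 71.5 in the first condition of the authors' deposited table, with a p of 0.0358 and a q of 0.259. Chmp5, which regulates Vps4 through its partner Lip5, stood at 70.6 in the second and 99.8 in the first condition of the authors' deposited table, with a p of 0.00595 and a q of 0.0949. Both lay on the side of Chmp2b without being called. Chmp4b, the main filament-forming subunit, was at 90.7 in the second and 92.9 in the first condition of the authors' deposited table, and Chmp6, which starts the filament, at 21.1 in the second and 20.5 in the first. Chmp6 was the 1 ESCRT-III gene of 9 with a positive log2 fold, 0.05.

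Upstream of ESCRT-III no gene was called. The 5 ESCRT-I genes named Vps had negative log2 folds, from -0.34 for Vps37b to -0.10 for Vps37c. Vps28, the most abundant of them, stood at 82.1 in the second and 98.7 in the first condition of the authors' deposited table. In ESCRT-II, Vps25 was at 43.2 in the second and 59.0 in the first condition of the authors' deposited table, with a p of 0.0320 and a q of 0.245. Its partner Vps36 was at 38.6 in the second and 38.5 in the first condition of the authors' deposited table, and the difference between their folds was not tested. Exons of Vps25 overlap Ramp2 on the same strand. Subunits outside the name rule were measured too. Snf8, the other ESCRT-II subunit, was at 24.8 in the second and 31.2 in the first condition of the authors' deposited table (log2 fold -0.33). In ESCRT-I, Tsg101, Mvb12b and Ubap1 had log2 folds of -0.28, -0.21 and -0.17 in the authors' deposited table, and Mvb12a had 0.0066. Ist1, a relative of the ESCRT-III subunits, had -0.24 there, and 0 of these 6 genes were called. Further endosomal sorting genes outside the name rule lay on both sides. Pdcd6ip, Hgs and Stam2 had log2 folds of 0.41 (Cuffdiff p 0.0268), 0.10 and 0.09. Stambp, Stam and Usp8 had -0.44 (Cuffdiff p 0.0369), -0.24 and -0.01, and none of these was called. Vps4a and Vps4b had log2 folds of -0.21 and -0.11 in the authors' deposited table and were not called.

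Retromer, built from Vps35, Vps29 and Vps26a or Vps26b, retrieves receptors from endosomes to the Golgi or the cell surface. Its 4 genes had log2 folds from -0.33 for Vps26a to -0.08 for Vps26b in the authors' deposited table. Of these 0 were called, against 5.12% of all measured genes. Vps35, the scaffold, stood at 60.0 in the second and 67.6 in the first condition of the authors' deposited table. Sorting nexins with a BAR domain bend the tubules through which this cargo leaves, and among them Snx32 fell. Snx32 lies on chromosome 19 from 5492235 to 5510538, on the minus strand, and was at 6.21 in the second and 11.5 in the first condition of the authors' deposited table (log2 fold -0.89, Cuffdiff q 0.0299). Exons of Snx32 overlap Cfl1 on the other strand, a highly expressed actin regulator at 1106 in the second and 1282 in the first condition of the authors' deposited table. Whether strand was used in counting is not given in the sources used here, so the part of Cfl1 reads in the Snx32 level was not tested. The close relatives of Snx32 were more abundant and not called. Snx5 stood at 117.4 in the second and 121.4 in the first condition of the authors' deposited table, and Snx6 at 31.4 in the second and 30.9 in the first. Their partners Snx1 and Snx2 had log2 folds of -0.22 and -0.27 in the authors' deposited table. Snx3, which recruits retromer for the Wnt carrier Wntless, was the most abundant sorting nexin, at 299.4 in the second and 379.1 in the first condition of the authors' deposited table, with a p of 0.0526. Snx27, which recycles receptors with PDZ-binding tails, was at 36.3 in the second and 32.6 in the first condition of the authors' deposited table. Of all 28 Snx genes 10 had a positive and 18 a negative log2 fold, and Snx9, a partner of dynamin in endocytosis, had the highest at 0.36 in the authors' deposited table.

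HOPS and CORVET tether late and early endosomes before fusion, and GARP and EARP do so at the Golgi and at recycling endosomes. Of the 7 HOPS and CORVET genes, 6 had a negative log2 fold and 0 were called, against 49.8% negative and 5.12% called of all measured genes. Vps41, the most abundant of these, stood at 44.4 in the second and 51.7 in the first condition of the authors' deposited table. The exception in sign was Vps8, which belongs to CORVET, at 15.8 in the second and 13.8 in the first condition of the authors' deposited table. Vps52, Vps53 and Vps54 had log2 folds of -0.27, -0.01 and -0.02 in the authors' deposited table. Vps72, named in the same series but known as a subunit of chromatin remodellers, stood at 31.4 in the second and 42.6 in the first condition of the authors' deposited table, with a p of 0.0293 and a q of 0.233.

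**Figure D2:**
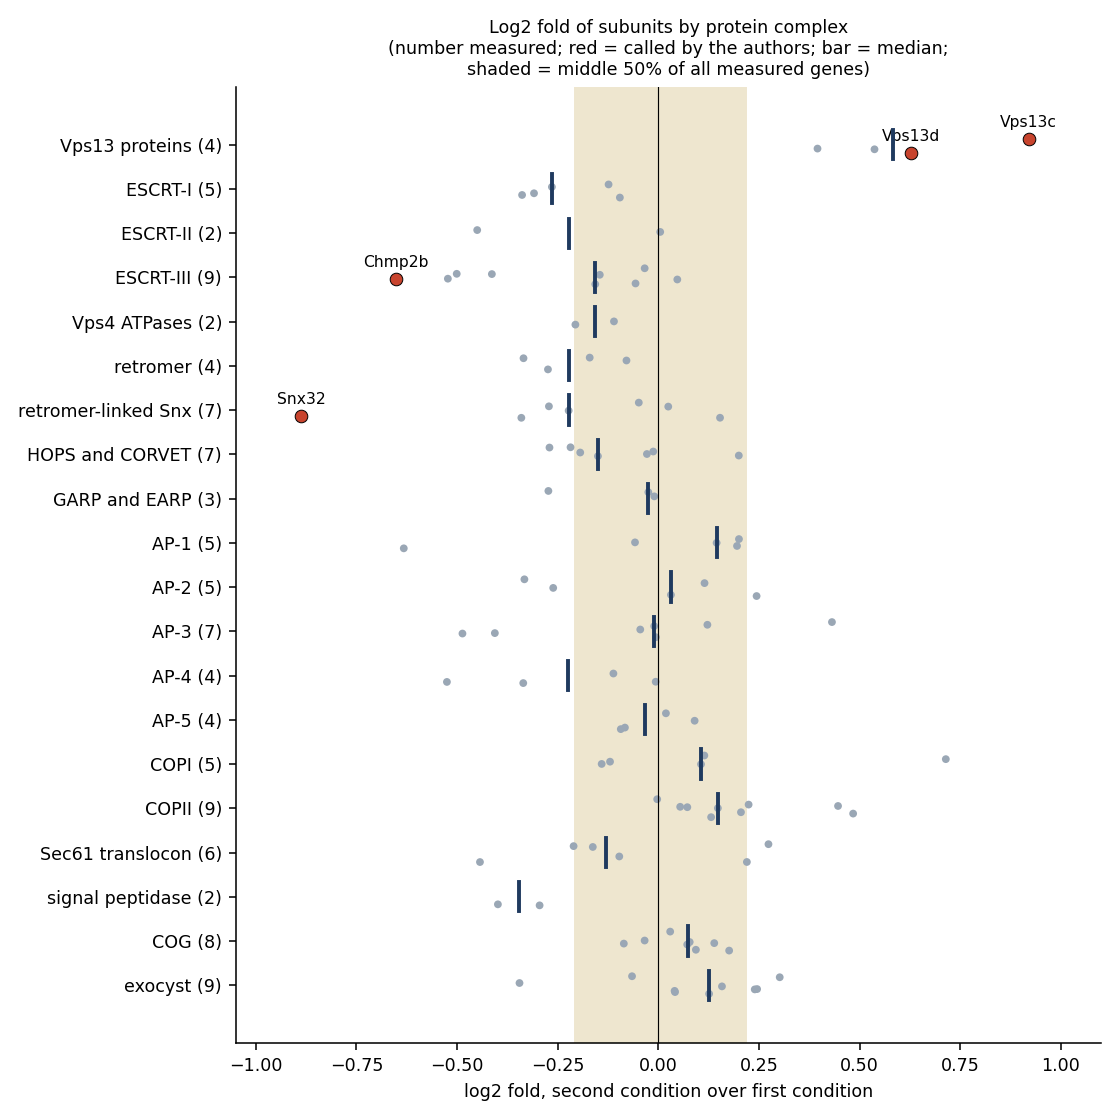
Log2 fold of the second over the first condition (x axis) for the subunits of each protein complex (y axis, number measured in brackets); red points were called by the authors, dark bars are medians, and the shaded band holds the middle 50% of all measured genes. All 4 Vps13 genes lie right of 0, 16 of the 18 ESCRT and Vps4 genes named Chmp or Vps lie left of it, and 8 of 9 COPII genes named Sec lie right of it. Of all measured genes 49.8% lie left of 0. That share is 24.1% in the longest of 10 length groups, which holds all 4 Vps13 genes, and 61.5% in the shorter 5 groups.

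Rab GTPases, in 44 rows, had 0 called genes, against 5.12% called of all measured genes. Of these rows 33 had a negative and 11 a positive log2 fold, with a median of -0.11 and a range from -0.60 to 0.43. That is 75% negative, against 49.8% of all measured genes and 61.5% of those in the shorter 5 of 10 length groups. Their median transcript length was 2506 nt. At an unadjusted Cuffdiff p under 0.05, 5 stood lower and 0 higher in the second condition. Over all measured genes 7.65% stood lower and 9.99% higher. Their summed level was 2454 in the second and 2677 in the first condition. The Rabs spanned more than 2 orders of magnitude in level. Rab31, an early endosomal and trans-Golgi Rab, was the most abundant at 547.1 in the second and 531.8 in the first condition of the authors' deposited table. Rab7, which marks late endosomes, followed at 307.8 in the second and 367.2 in the first condition of the authors' deposited table. At the other end, the Golgi-associated Rab33a stood at 0.884 in the second and 1.34 in the first condition of the authors' deposited table. Rab33a had the lowest log2 fold of the Rabs, and the highest, 0.43, was that of Rab15, an endosomal Rab at 1.36 in the second and 1.01 in the first condition of the authors' deposited table.

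The early endosomal Rab5 genes all had negative log2 folds. Rab5a stood at 26.3 in the second and 37.5 in the first condition of the authors' deposited table (log2 fold -0.51, p 0.00860, Cuffdiff q 0.117). Rab5b was at 36.0 in the second and 40.9 in the first condition of the authors' deposited table. Rab5c, the most abundant of them, was at 143.0 in the second and 165.3 in the first condition of the authors' deposited table. None of the 3 was called. Exons of Rab5a overlap Pp2d1 on the other strand. Among the recycling Rabs, Rab11a stood at 86.0 in the second and 103.0 in the first condition of the authors' deposited table, and Rab4a at 10.8 in the second and 13.7 in the first. Rab35, which also serves recycling to the surface, had the 1 positive log2 fold of these 5, 0.09. Of the late endosomal Rabs, Rab9, which returns mannose 6-phosphate receptors to the Golgi, was at 48.4 in the second and 65.7 in the first condition of the authors' deposited table, with a p of 0.0196 and a q of 0.187.

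Between endoplasmic reticulum and Golgi, Rab2a had the lowest q of all Rabs. It stood at 95.7 in the second and 137.1 in the first condition of the authors' deposited table (log2 fold -0.52, p 0.00440, Cuffdiff q 0.0777). Rab1 and Rab1b, which control the first step out of the endoplasmic reticulum, lay on opposite sides. Rab1 was at 93.6 in the second and 123.5 in the first condition of the authors' deposited table, with a p of 0.0234 and a q of 0.207. Rab1b was at 225.2 in the second and 196.4 in the first condition of the authors' deposited table, with a p of 0.266. Neither was called. All 6 Rabs grouped here as secretory, Rab3a, Rab8a, Rab8b, Rab10, Rab13 and Rab14, had negative log2 folds, down to -0.23 for Rab8b. Of all 44 Rab rows 75% were negative, and the grouping was made after the values were seen. Rab24, linked to autophagy, stood at 6.35 in the second and 9.56 in the first condition of the authors' deposited table, with a p of 0.0164 and a q of 0.168. Among the 12 Rab effectors and regulators named after Rabs, 6 had a positive and 6 a negative log2 fold and 0 were called, including both subunits of the Rab3 GTPase-activating complex, Rab3gap1 and Rab3gap2. Rabgap1, a Rab GTPase-activating protein, was the most abundant of them at 31.0 in the second and 34.8 in the first condition of the authors' deposited table. Their log2 folds ran from -0.46 for its relative Rabgap1l to 0.36 for Rab11fip5, an effector of Rab11, in the authors' deposited table.

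**Figure D3:**
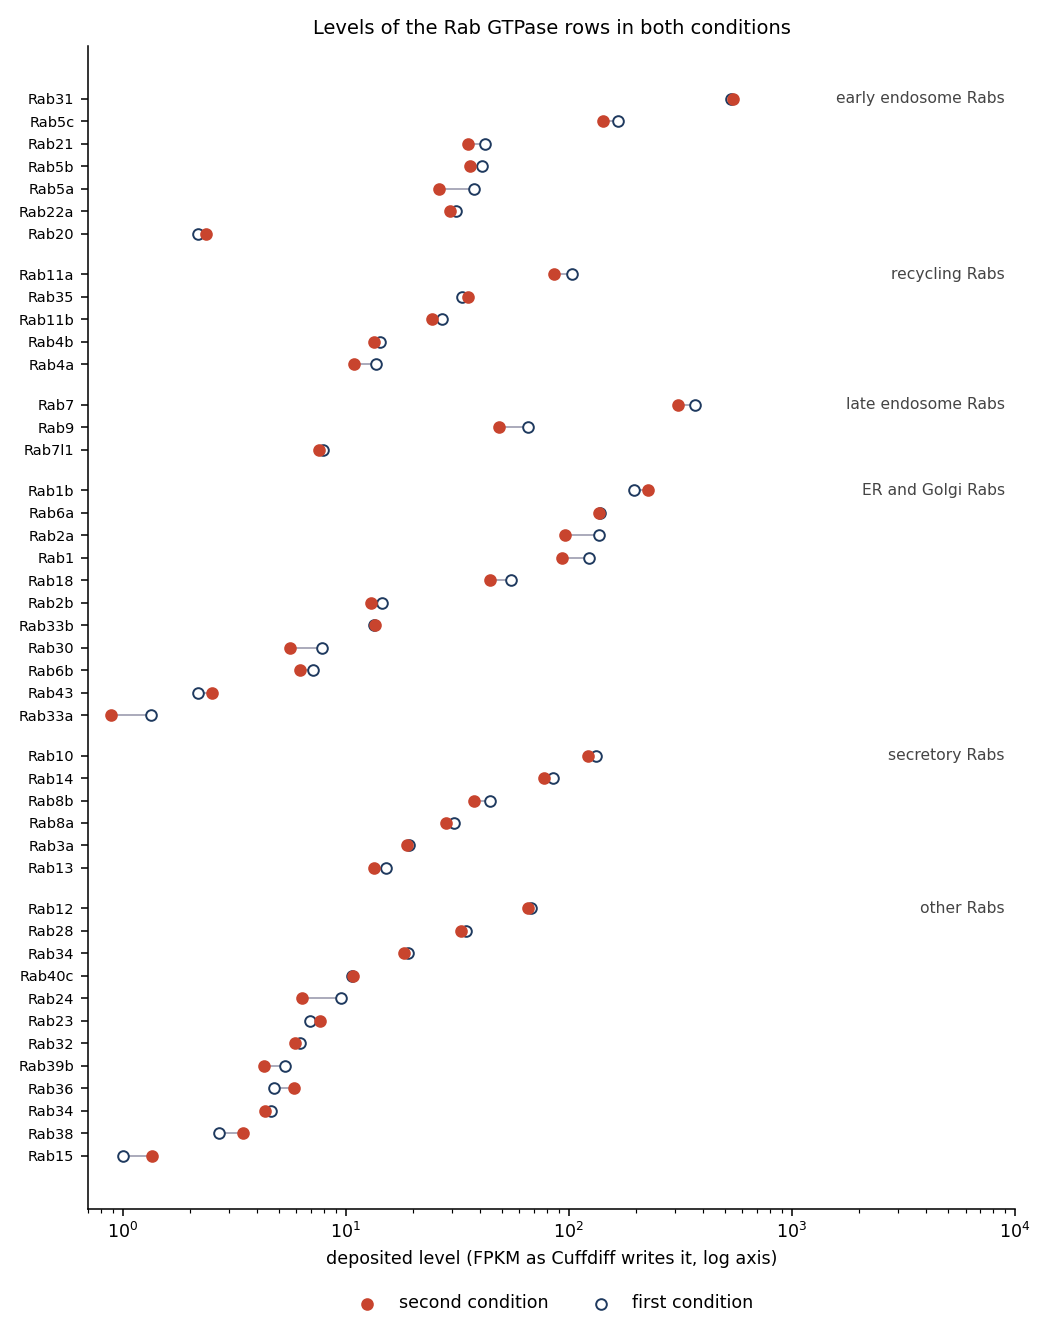
Deposited level on a log axis (x axis, FPKM as Cuffdiff writes it) of each Rab GTPase row (y axis) in the second condition (filled) and in the first condition (open), joined by a line and grouped by compartment. The longest lines are those of Rab33a and Rab24, both lower in the second condition. Rab2a, Rab5a, Rab30, Rab9 and Rab1 also stand lower with lines longer than those of most other Rabs. Rab15 stands higher with such a line, and none of these was called.

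SNARE proteins of the syntaxin (Stx) and Vamp families pull membranes together for fusion. Their 17 rows held 0 called genes, against 5.12% called of all measured genes. Stx3, a syntaxin of the plasma membrane, stands in 2 rows, with 14.4 in the second and 9.61 in the first condition in one, and 2.98 in the second and 2.43 in the first condition in the other, of the authors' deposited table. The q of the more abundant row was 0.112 and that of the other 0.859, and which transcripts each row holds is not given in the sources used here. Stx5a, which serves traffic into the Golgi, was at 19.6 in the second and 26.2 in the first condition of the authors' deposited table, with a p of 0.0374 and a q of 0.266. Vamp4, a v-SNARE of the trans-Golgi, had the lowest log2 fold of the Vamp genes, -0.38, and Vamp2, known from synaptic vesicles, the highest, 0.06. Stx12, an endosomal syntaxin, was the most abundant Stx gene at 70.8 in the second and 81.0 in the first condition of the authors' deposited table. Vamp3, the endosomal v-SNARE, was the most abundant SNARE at 94.3 in the second and 99.7 in the first condition of the authors' deposited table.

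The adaptor complexes AP-1 to AP-5 select cargo, AP-2 at the plasma membrane and the others at the Golgi and endosomes. Against 5.12% called of all measured genes, 0 of their 25 subunits were called. Splitting them by subunit size, a split made after the values were seen, gave 11 negative log2 folds among 13 medium and small subunits and 4 among 12 large ones. The median log2 fold was -0.08 for the medium and small subunits and 0.10 for the large ones, and their median transcript lengths were 2937 and 4053 nt. Within AP-2, the small subunit gene Ap2s1 stood at 188.4 in the second and 237.2 in the first condition of the authors' deposited table, while the large subunit gene Ap2a2 stood at 66.3 in the second and 56.0 in the first. Among the large subunits Ap3b2, a form of the AP-3 beta subunit known from neurons, lay on the other side from their median. It was at 3.10 in the second and 4.34 in the first condition of the authors' deposited table (log2 fold -0.49, p 0.0483, Cuffdiff q 0.304). Ap4b1, Ap5b1 and Ap4e1 lay on that side too, with log2 folds of -0.53 (Cuffdiff p 0.633), -0.09 and -0.0065. Within AP-3, Ap3s1 was at 41.5 in the second and 55.0 in the first condition of the authors' deposited table, with a q of 0.256. The large subunit gene Ap3d1 was at 43.1 in the second and 32.0 in the first condition of the authors' deposited table, with a q of 0.173. Ap1s2, a small subunit of AP-1, had the lowest log2 fold of the adaptors, -0.63, at 5.80 in the second and 8.99 in the first condition of the authors' deposited table, with a q of 0.127.

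COPII coats carry cargo out of the endoplasmic reticulum, and 8 of the 9 genes named Sec that build them had a positive log2 fold. The median of the 9 was 0.15, and 0 were called, against 5.12% called of all measured genes. Their median transcript length was 4228 nt. Negative log2 folds made up 49.8% of all measured genes and 41.4% of those in groups 6 to 9 of 10 by length. The part of length in the signs of the COPII genes was not tested. Sec24a, a cargo-binding subunit, stood at 12.04 in the second and 8.61 in the first condition of the authors' deposited table, with a p of 0.0106 and a q of 0.131. Sec16a, the scaffold of the exit sites, was at 18.3 in the second and 13.4 in the first condition of the authors' deposited table, with a p of 0.0140 and a q of 0.155. The inner coat gene Sec23b was the 1 of these 9 without a positive fold, at 43.2 in the second and 43.3 in the first condition of the authors' deposited table. The GTPases that start the coat, which lie outside the name rule, had negative log2 folds. Sar1b stood at 41.7 in the second and 59.6 in the first condition of the authors' deposited table (log2 fold -0.52, p 0.00845, Cuffdiff q 0.116), and Sar1a had a log2 fold of -0.08. Neither was called. The translocon, through which new proteins enter the endoplasmic reticulum, was split in sign. Its core subunit gene Sec61a1 stood at 149.0 in the second and 123.2 in the first condition of the authors' deposited table, whereas Sec62, an accessory factor, stood at 15.4 in the second and 20.99 in the first, with a p of 0.0230. Neither was called. Sec61b, a small subunit of the channel, was the most abundant Sec gene at 166.0 in the second and 142.5 in the first condition of the authors' deposited table. Both signal peptidase genes, Sec11a and Sec11c, had negative log2 folds, -0.40 and -0.29.

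COPI coats, which return proteins to the endoplasmic reticulum, included the largest fold among the members that were not called. Copg2 stood at 124.6 in the second and 76.0 in the first condition of the authors' deposited table (log2 fold 0.71, p 0.107, Cuffdiff q 0.439). Exons of Copg2 overlap Mest on the other strand, an imprinted gene that rose to 756.7 in the second condition, against 424.1 in the first condition of the authors' deposited table (log2 fold 0.84). The part of Mest reads in the Copg2 level was not tested. Its close relative Copg1 was at 69.0 in the second and 63.8 in the first condition of the authors' deposited table. Copb2, another coat subunit, had the lowest log2 fold of the COPI genes within the name rule, -0.14. Outside that rule, the coat subunit genes Copz1, Cope, Arcn1 and Copz2 had log2 folds of -0.17, -0.07, -0.03 and 0.03. None of them was called. The tethers of the secretory pathway held 0 called genes, against 5.12% called of all measured genes. The 8 COG genes, which act at the Golgi, had log2 folds between -0.09 for Cog6 and 0.18 for Cog8, and Cog1 was the most abundant of them at 18.9 in the second and 18.6 in the first condition of the authors' deposited table. The 9 exocyst genes, which tether vesicles at the plasma membrane, had log2 folds between -0.34 for Exoc5 and 0.30 for Exoc6b. Exoc3l, a relative of the subunit Exoc3, was not called, with a p of 0.256 and a log2 fold of -0.54 in the authors' deposited table. Exoc4, the most abundant exocyst gene, stood at 73.8 in the second and 62.3 in the first condition of the authors' deposited table.

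The folds of these genes followed transcript length, as did those of the whole table. Over 238 member rows with a known length, Pearson's r between log10 length and log2 fold was 0.41 and Spearman's rho 0.40, against 0.25 and 0.32 over 11640 measured genes. These are correlations across genes of the same pooled comparison, and genes are not independent replicates. In the shorter 5 of 10 length groups, members had a median log2 fold of -0.14 against -0.08 for all measured genes, and 77.7% of the members were negative against 61.5%. In length groups 6 to 9 the medians were 0.02 for the members and 0.06 for all measured genes. In the longest group, above 6856 nt, they were 0.20 for the members and 0.24 for all measured genes. Called rises there were 2 of 15 members, Vps13c and Vps13d, which is 13.3%, against 13.8% of all measured genes of that length. In the shorter 5 groups called falls were 2 of 112 members, Chmp2b and Snx32, which is 1.79%, against 2.18% of all measured genes. Tbc1d1, at 6471 nt, lies in groups 6 to 9, where 1 of 111 members rose, 0.901%, against 3.05% of all measured genes. The part of transcript length in these results was not tested.

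**Figure D4:**
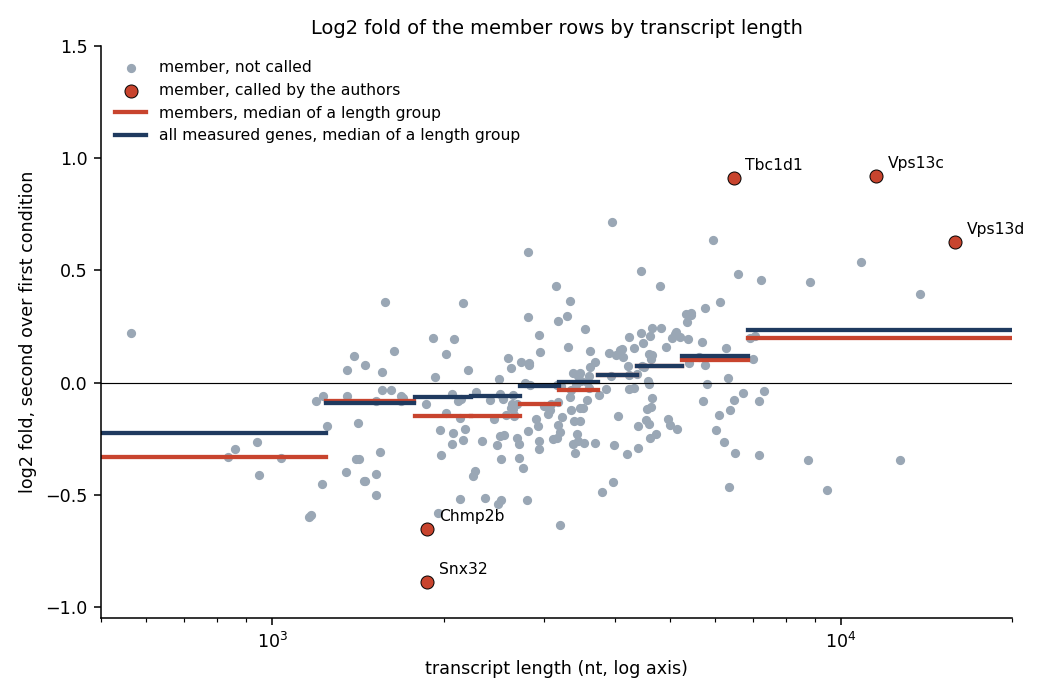
Log2 fold of the second over the first condition (y axis) against transcript length in nt on a log axis (x axis) for the 238 member rows with a known length; red points were called by the authors, and horizontal lines give the median of each of 10 length groups for the members (red) and for all measured genes (blue). The lines of the outer groups are cut at the ends of the axis. Both sets of lines climb with length, to 0.20 and 0.24 in the longest group.

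Other genes of the same traffic, taken from a list of 159 names outside the name rule, were measured for 141. Of these 6 rose and 0 fell, which is 4.26% rises against 3.26% of all measured genes, and 0% falls against 1.86%. The median log2 fold was -0.05. The 6 included 4 of the 8 listed cargo receptors, a subgroup picked after the values were seen, and 3 of them are described here. Tfrc, the transferrin receptor, rose to 45.3 in the second condition, against 27.4 in the first condition of the authors' deposited table. Lrp1, an endocytic receptor of many ligands, rose to 43.1 in the second condition, against 27.7 in the first condition of the authors' deposited table. Igf2r, which carries lysosomal enzymes from the Golgi and is retrieved by retromer, rose to 6.69 in the second condition, against 3.44 in the first condition of the authors' deposited table. The receptors not called were Sort1, Sorl1 and Sorcs2, with positive log2 folds, and M6pr, with -0.04. The median transcript length over all 8 receptors was 6272 nt. Of the 8, 3 lie above 6856 nt, Lrp1 and Igf2r among them, and 13.8% of all measured genes of that length rose. The other rises were Ehd4, an ATPase of endosomal recycling, with a log2 fold of 1.26, and Arfgef2, an exchange factor for Arf GTPases, with 0.67, in the authors' deposited table. Outside the cargo receptors the list held 2 rises among 133 genes, where rises made up 3.26% of all measured genes.

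Facts of the whole table bear on these values. Sox4, the targeted gene, stood at 83.9 in the second and 126.8 in the first condition of the authors' deposited table (log2 fold -0.60, Cuffdiff q 0.0543), and was not called. Of 10 neural stem cell markers 9 have a row, among them Sox2, Nes and Vim, and the 9 sum to a level of 3964 in the second and 6150 in the first condition. Of these 2, Nes and Sox1, were called as higher, and 1, Fabp7, as lower. Fabp7, a marker of radial glia that fell to 2286 in the second condition, against 4620 in the first condition of the authors' deposited table, is the most abundant of them. Without Fabp7 the other 8 sum to 1678 in the second and 1529 in the first condition. All 5 astrocyte markers have a row and sum to 31.5 in the second and 76.2 in the first condition, with 1 called as higher and 3 as lower. Of 6 oligodendrocyte lineage markers 4 have a row and sum to 1187 in the second and 1374 in the first condition. Of 6 neuron markers 4 have one and sum to 134.4 in the second and 133.7 in the first condition, and of 7 fibroblast markers 2 have one and sum to 4.29 in the second and 4.37 in the first condition. The 7 microglial and endothelial markers have no row among those analysed here. The part of cell make-up in the vesicle gene levels was not tested, and in bulk RNA fewer cells of a type and less RNA per cell cannot be told apart.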

How the data were processed

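Reads were processed by the authors with TopHat2 2.0.9, Cufflinks 2.2.1 and Cuffdiff (no version given) on mm10, per the submitters' processing notes. Which annotation they used, and whether counting took strand into account, is not given in the sources used here. Their deposited table holds 1 level per gene and condition, pooled by the authors, whose unit the header does not state. Per the file headers it also holds, for each gene, a log2 value for the fold (second condition over first), a test score, the p-value with its adjusted q-value and the authors' flag. Nothing was refitted, since values per library are not given here, and the depth is unknown. If the passages were not separate cultures, the authors' p-values cover only the spread between libraries, which may be technical.

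Members and lists were chosen with earlier results of these data known, and complexes and subgroups were assigned after the values were seen. Named are the called members, uncalled ones with p under 0.05, the extremes and the most abundant gene of each family and some subunits of complexes, with the rest in ranges; a few relatives of these, such as Tbc1d4, were added. Transcript lengths, positions and exon overlaps came from GENCODE M21 on GRCm38 (longest transcript, coding where present): 237 rows matched as written, Rab7l1 by an older name, and Rab1 had no match. The authors may have used another annotation. Benjamini-Hochberg adjustment and medians were tested on simulated data. Python 3.11.15, pandas 2.3.3, numpy 2.4.6, scipy 1.17.1 and matplotlib 3.10.9 were used. The values of 1 gene outside the name rule are not reported here.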

Additional observations from a re-analysis of the deposited data

How the results depend on the processing

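The 3 rises and 2 falls were the same in number with q recomputed over measured genes, with no level filter and with rows of several genes added (Tbc1d24 and Vps51, not called). With a level of at least 5 there were 2 rises and 2 falls. At a q of 0.01 there were 2 rises and 0 falls, and a minimum log2 change of 1 in either direction left 0 of each. Without the longest 10% of transcripts 1 rise, Tbc1d1, and 2 falls were left, since both Vps13 genes are among the longest. With a pseudocount of 1 the members' median log2 ratio was -0.06, and it stayed between -0.07 and -0.05 under all 7 alternatives. The q of Sox4 was 0.0543 as deposited and 0.0461 when recomputed over fewer genes. Among 164 named rows, the log2 fold of Rab15 and of Rab33a shrank by over 1.5 times once a pseudocount of 1 was added. No paired analysis was possible because values per library are not given here, and replicates could not be left out in turn either.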

Other observations

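Paralogs of the Rab family can be added up, since FPKM, as which the levels are read, is per length, and these sums were chosen after the values were seen. Rab1 and Rab1b together summed to 318.9 in the second and 320.0 in the first condition, although the genes lay on opposite sides. Rab2a and Rab2b together summed to 108.7 in the second and 151.7 in the first condition, and the 3 Rab5 genes to 205.2 in the second and 243.7 in the first. Rab6a and Rab6b summed to 142.5 in the second and 144.7 in the first, and Rab11a and Rab11b to 110.4 in the second and 130.0 in the first. Rab4a and Rab4b summed to 24.3 in the second and 27.9 in the first, and Rab8a and Rab8b to 65.9 in the second and 74.7 in the first. No error can be given for these sums. Of the 239 member rows, 93 have exons that overlap another annotated gene, 77 of them on the other strand. The smallest log2 change called in the whole table was 0.55 in size, and 7 of the 12 members that reached it were not called.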
